A study of Mus musculus with 18 samples.

Results

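The CTCF peaks around the alpha and beta globin genes were described in mouse embryonic stem cells of 3 genotypes. The intervals were taken by position and not by any measured value, although the genes were chosen with earlier results of these data known. An interval of a peak list was taken when a summit lay inside or within 50 kb of Hba-x, Hba-a1, Hba-a2 or Nprl3 on chromosome 11 (the alpha locus), or of Hbb-bt, Hbb-bs, Hbb-bh1 or Hbb-y on chromosome 7 (the beta locus). This gave 21 of 59372 intervals in the SKO list, 20 of 62238 in the TKO list and 17 of 71075 in the WT list. Merged across lists they make 22 of 78072 regions, 19 at the alpha locus and 3 at the beta locus.

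SKO cells lack Dnmt1, Dnmt3a, Dnmt3b, Tet1, Tet2 and Tet3. TKO cells lack Tet1, Tet2 and Tet3, and WT cells carry none of these deletions. Each genotype has 3 CTCF ChIP and 3 input samples, which the authors pooled into 1 peak list per genotype, so no value has a spread between replicates and no p-value is given. Effects of the deletions cannot be told apart from other differences between the lines, and the labels do not say whether the cultures were separate or whether a line is 1 clone. The cultures were typically kept on irradiated mouse fibroblasts, whose chromatin may be part of each sample. Peak lists hold no expression values, so neither the stem cells nor the fibroblasts could be checked by marker genes, and the deletions could not be checked either.

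CTCF is a zinc finger protein that halts loop extrusion by cohesin and so marks the borders of chromatin domains. Methylation of CpG dinucleotides within its motif is known to hinder its binding at some sites; the DNMT enzymes write this methylation and the TET enzymes oxidise it. The globin loci are classic models of such domains. The alpha genes are switched on in red cell precursors by enhancers in and near the introns of Nprl3, and the beta genes by a locus control region beyond Hbb-y. CTCF sites flank both loci. In stem cells the globin genes are generally held to be silent, but expression was not measured here in any genotype.

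The sequences under the summits at the theta globin promoters are shown first. Only promoter windows were searched for the motif. Summits elsewhere, such as those within Nprl3, those between genes past Hbq1a and all those of the beta locus, were not searched. Hbq1b and Hbq1a are the theta globin genes, a duplicated pair of alpha-like genes that lie just past Hba-a1 and Hba-a2. Their promoter windows each held a CTCF summit in every list. The windows run from 250 bases before to 50 after the gene start (RefSeq, GRCm38.p6, plus strand, chr11:32286714-32287013 and chr11:32299819-32300118). Capitals mark the match to the core of the CTCF motif, searched on both strands as CCNNNAGNNGGC and found here on the minus strand:
Hbq1b: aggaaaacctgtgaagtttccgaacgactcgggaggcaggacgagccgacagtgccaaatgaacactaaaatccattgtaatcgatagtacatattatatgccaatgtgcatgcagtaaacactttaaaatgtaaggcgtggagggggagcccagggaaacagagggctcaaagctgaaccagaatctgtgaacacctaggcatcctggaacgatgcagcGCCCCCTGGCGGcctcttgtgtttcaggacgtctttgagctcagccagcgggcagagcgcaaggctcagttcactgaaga
Hbq1a: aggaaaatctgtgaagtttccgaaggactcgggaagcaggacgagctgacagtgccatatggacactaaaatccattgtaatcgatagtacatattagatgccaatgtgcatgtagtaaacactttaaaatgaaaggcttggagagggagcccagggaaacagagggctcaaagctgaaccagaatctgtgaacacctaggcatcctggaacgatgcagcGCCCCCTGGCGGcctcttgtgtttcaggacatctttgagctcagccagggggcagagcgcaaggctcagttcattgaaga

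The same 12 bases matched in both windows, at positions 221 to 232 counted from the 5′ end, which is 30 to 19 bases before the gene start. The summits lay close to the middle of the match. At Hbq1b they were 10, 8 and 12 bases past it in SKO, TKO and WT, and at Hbq1a 14, 6 and 18 bases past it. Of 32851 promoter windows of this length, 8.61% held the motif on either strand, and a stricter form, CCNNNAGGNGGC, which these matches also fit, was in 3.43%. Among windows with a summit the core motif was in 34.4% in SKO, 34.6% in TKO and 34.4% in WT. The other promoter windows of the alpha locus that held a summit, those of Snrnp25 (in SKO and WT) and Il9r (in SKO), had no match. A match in letters does not show that CTCF binds there.

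The Hbq1a and Hbq1b windows were 95.3% identical, with 14 mismatches and no gap, and the match lay in a run of 105 identical bases. Reads from so alike a pair can be placed at either copy, and how reads with several placements were handled is unknown here. The split of the values between the copies is therefore uncertain.

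Both theta promoters carried an interval in every list. A pileup is the number of ChIP fragments over a summit, solved from the authors' fold enrichment and p-value, and is given with an exact Poisson 95% interval that covers counting error only, since fragments were amplified by PCR. Over the Hbq1b promoter it was 87 in SKO (69.7 to 107), 92 in TKO (74.2 to 113) and 118 in WT (97.7 to 141). Over the Hbq1a promoter it was 94 in SKO (76.0 to 115), 108 in TKO (88.6 to 130) and 120 in WT (99.5 to 143). The WT pileups are the highest of each trio, but the lists differ in depth. Divided by the lowest background of its list (1.37 fragments in SKO, 1.82 in TKO and 1.76 in WT), the Hbq1b promoter was at 63.6 in SKO, 50.6 in TKO and 67.2 in WT, and the Hbq1a promoter at 68.7 in SKO, 59.4 in TKO and 68.4 in WT. Over all intervals that pair between lists the median pileup ratio was 0.733 for SKO over WT and 0.894 for TKO over WT. The ratio of the Hbq1a to the Hbq1b pileup was 1.08 in SKO (0.799 to 1.46), 1.17 in TKO (0.881 to 1.57) and 1.02 in WT (0.782 to 1.32), and each interval holds 1. Fewer cells with CTCF bound and less binding in each cell cannot be told apart in such bulk samples.

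Each theta promoter also had a weak neighbour upstream. Near Hbq1b it was in all lists, at 840 bp from the promoter summit in SKO, 833 bp in TKO and 806 bp in WT. Its pileup was 13 in SKO, 20 in TKO and 12 in WT. Near Hbq1a a weak interval was in SKO and in TKO, and WT had none. In SKO it was chr11:32298905-32299215, 1010 bp from the promoter summit, with a pileup of 13 (6.92 to 22.2). In TKO it was chr11:32298990-32299253, 956 bp from the promoter summit, with a pileup of 17 (9.90 to 27.2). In SKO both weak neighbours had the same pileup of 13, background of 1.66 and fold of 5.25. The distances to the promoter summit differed between Hbq1b and Hbq1a, and the sequences under the weak neighbours were not compared. Whether they are copies of the same site was therefore not tested. A neighbour was missing only for WT at Hbq1a. The Hbq1b neighbour in WT itself had a −log10 q of 4.24, in the weakest decile of that list. Deciles here divide a list into 10 equal parts by −log10 q, the first being the weakest.

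**Figure D1:**
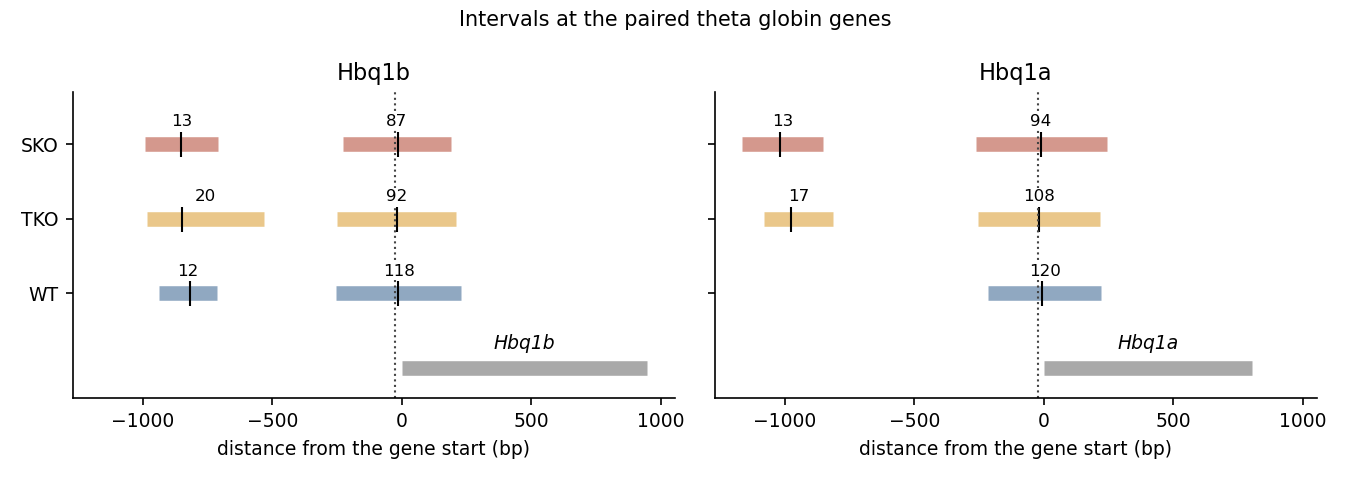
Intervals (bars) and summits (black ticks) of SKO, TKO and WT by distance from the start of Hbq1b and Hbq1a in bp, with the pileup in ChIP fragments above each bar, the gene in grey and the middle of the motif match as a dotted line. Strong intervals with pileups of 87 to 120 sit on both promoters in every list, and the weak interval upstream is missing only for WT at Hbq1a.

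The alpha locus was dense in CTCF and its intervals recurred in every genotype. Its window (chr11:32181963-32347310, 165.3 kb) held 19 intervals in SKO, 17 in TKO and 16 in WT, or 115, 103 and 96.8 per Mb. Chromosome 11 as a whole had 35.1 per Mb in SKO, 36.6 in TKO and 41.1 in WT. Of the 19 regions, 16 (84.2%) were in all lists, as were 66.3% of all regions of the series. Another 1 (5.26%) was in SKO and TKO, against 1.64% of the series, and 2 (10.5%) were in SKO alone, against 3.34%. The authors' fold enrichment is the ratio of pileup to local background at the summit, with 1 added to each. Over the alpha intervals it had a median of 12.0 in SKO (3.76 to 33.7), 14.6 in TKO (4.44 to 33.1) and 13.5 in WT (4.15 to 35.9). Over whole lists the median was 10.5 in SKO, 9.84 in TKO and 10.0 in WT. By −log10 q, 11 of 19 alpha intervals in SKO, 13 of 17 in TKO and 13 of 16 in WT were in the stronger 5 deciles of their list.

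**Figure D2:**
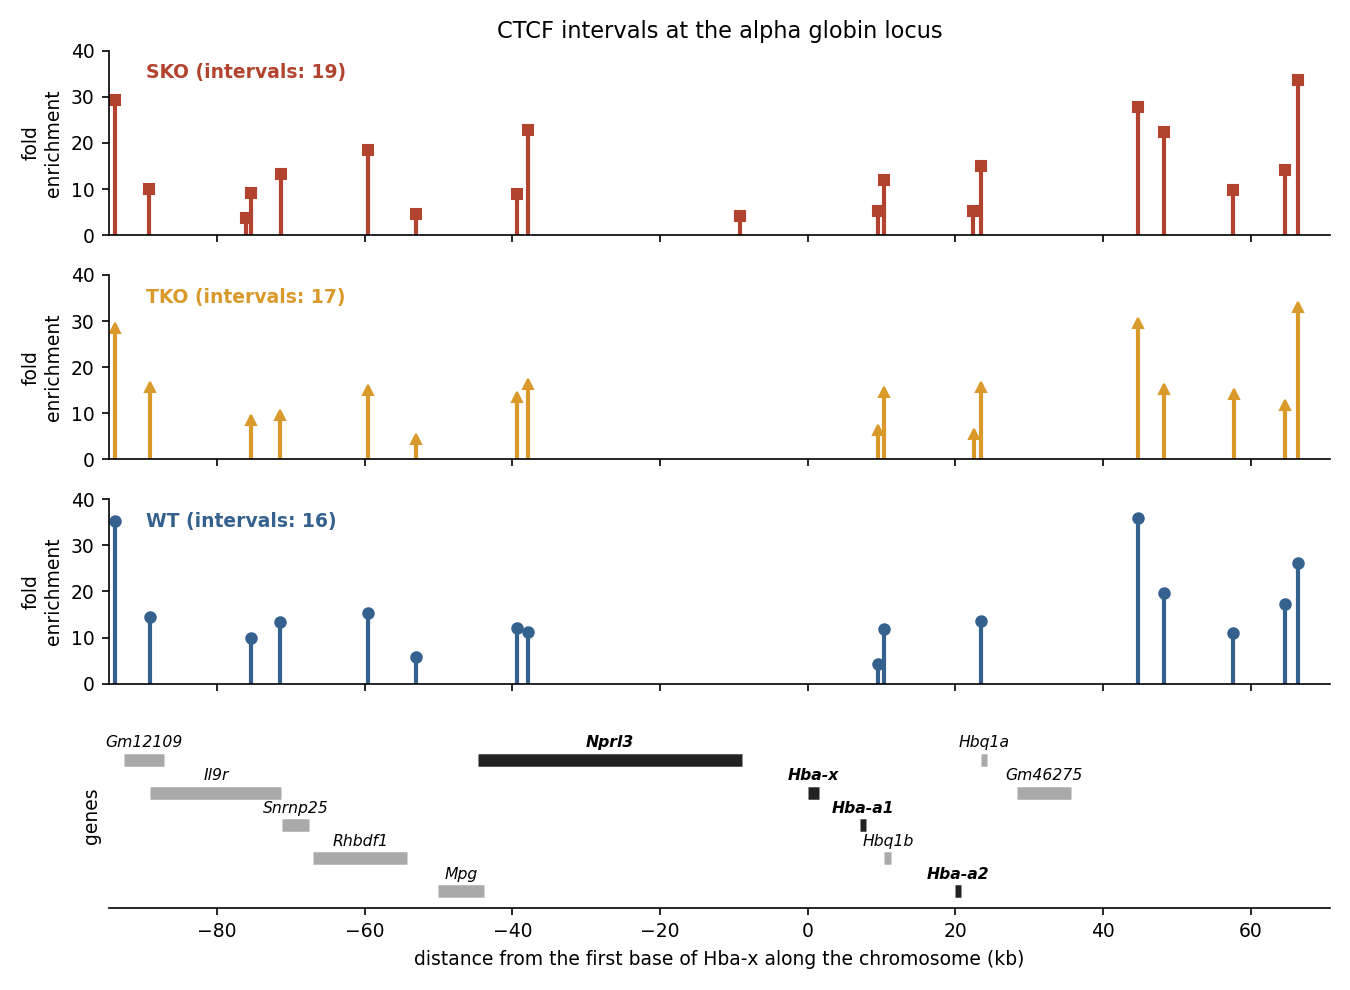
Authors' fold enrichment (stems, linear axis from 0) of each CTCF interval of the alpha locus in SKO, TKO and WT, by distance from the first base of Hba-x in kb, with the named genes in black and their neighbours in grey. The same positions recur in the 3 lists, and the stretch from the Nprl3 intervals at −37.9 kb to the weak site before Hbq1b is empty but for 1 SKO interval of fold 4.22.

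No WT interval of the alpha locus was missing from a knockout. Without the TET enzymes, 0 of 16 WT intervals lacked a TKO interval, which allows a share of up to 18.8%, against 19.0% over the whole WT list. In the other direction 1 of 17 TKO intervals (5.88%) lacked a WT interval, against 7.49% of the TKO list. Without both enzyme families, 0 of 16 WT intervals lacked an SKO interval, which allows up to 18.8%, against 21.9% of the WT list, and 3 of 19 SKO intervals (15.8%) lacked a WT interval, against 6.59% of the SKO list. Between the knockouts, 0 of 17 TKO intervals lacked an SKO interval (up to 17.6%), against 14.5% of the TKO list, and 2 of 19 SKO intervals (10.5%) lacked a TKO interval, against 10.4% of the SKO list. These limits for a count of 0 are 3 counts of the total; the exact binomial 95% interval for 0 of 16 ends at 20.6%. The share of the whole WT list thus lies between both limits for TKO (19.0%) and above both for SKO (21.9%), and the exact intervals of the other 4 shares hold those of their lists. The share without a partner depends on the strength of an interval, and the alpha intervals of WT were mostly strong. Averaged over the 16 WT members, the share without a partner in the member's own decile of −log10 q was 7.31% for TKO and 8.40% for SKO, and the exact interval for 0 of 16 holds both.

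Inside the alpha window, the intervals that differed between lists were all weak. The SKO interval at chr11:32200378-32200582 lay in Il9r, the receptor gene of interleukin 9. Its summit was in the promoter window taken for that gene (chr11:32200230-32200529, minus strand). That window lies inside the gene body (chr11:32187544-32205283) and not at its 5′ end. The fold of this interval was 3.76 and its pileup 8 (3.45 to 15.8). The SKO interval at chr11:32267365-32267587 lay just inside the promoter end of Nprl3, with a fold of 4.22 and a pileup of 9 (4.12 to 17.1). Both were in the weakest SKO decile, where 49.9% of intervals had no TKO partner and 37.5% no WT partner. The third, beside Hbq1a, was in the second decile of SKO and of TKO, where 17.6% and 20.6% had no WT partner.

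From the low end of the window inward, the region farthest upstream, at −93.9 kb from the first base of Hba-x, lay between genes 4.83 kb from Il9r. It was among the strongest by fold, with 29.4 in SKO, 28.5 in TKO and 35.3 in WT. Regions at −89.2 kb (fold 10.1 in SKO, 15.6 in TKO and 14.4 in WT) and −75.4 kb (9.26 in SKO, 8.59 in TKO and 9.93 in WT) lay beside and within Il9r. The region at −71.4 kb lay at the 5′ end of the Il9r body, beside Snrnp25, which encodes a protein of the minor spliceosome. Its summit fell in the promoter window of Snrnp25 in SKO and WT, and outside it in TKO. Its pileup was 65 in SKO, 57 in TKO and 90 in WT. The TKO over WT ratio there was 0.633 (0.446 to 0.892), the 1 alpha ratio of 16 whose counting interval lay below the median of all pairs, at percentile 8.64 among them.

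The region at −59.6 kb lay within Rhbdf1, an inactive rhomboid protein of growth factor release, with a pileup of 73 in SKO, 100 in TKO and 104 in WT. The weaker region at −53.1 kb, between Rhbdf1 and the DNA repair glycosylase gene Mpg, had 19 in SKO, 30 in TKO and 25 in WT. Mpg held no summit in any list.

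Nprl3 encodes a subunit of the GATOR1 complex, which restrains the growth kinase complex mTORC1. It held 3 intervals in SKO, 2 in TKO and 2 in WT. The shared pair, at −39.4 kb and −37.9 kb, is 1457 bp apart in SKO, 1428 bp in TKO and 1420 bp in WT. In mouse red cell precursors, deletion of CTCF sites on this side of the alpha genes is known to raise neighbours such as Mpg and Rhbdf1; whether these summits are the same sites was not tested. The pileup at −39.4 kb was 50 in SKO (37.1 to 65.9), 64 in TKO (49.3 to 81.7) and 87 in WT (69.7 to 107). At −37.9 kb it was 90 in SKO (72.4 to 111), 77 in TKO (60.8 to 96.2) and 92 in WT (74.2 to 113). The outer site was thus lowest in SKO and highest in WT, whereas at the inner site TKO was lowest and SKO and WT were 2 fragments apart. These orders are of pileups not scaled for depth. Divided by the lowest background of its list, the outer site was at 36.6 in SKO, 35.2 in TKO and 49.6 in WT, and the inner site at 65.8 in SKO, 42.3 in TKO and 52.4 in WT. So scaled, TKO was lowest at both sites, and SKO was above WT at the inner site. Over all paired intervals the median pileup ratio was 0.894 for TKO over WT and 0.821 for SKO over TKO. The lowest backgrounds had ratios of 1.04 and 0.752. By these medians TKO was lowest over all paired intervals too, when so scaled.

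The balance of the Nprl3 pair was compared after its values were seen. The ratio of the inner to the outer pileup was 1.80 in SKO (1.26 to 2.60), 1.20 in TKO (0.852 to 1.70) and 1.06 in WT (0.780 to 1.43). The SKO interval excludes 1 and the others hold it, and the SKO and WT intervals overlap. The difference between the lists was not tested. The authors' fold at the inner site was 22.8 in SKO, 16.3 in TKO and 11.1 in WT. The local background beneath it was 3.00 fragments in SKO, 3.78 in TKO and 7.40 in WT, so SKO and WT differed in fold at nearly the same pileup. Over all alpha intervals the median local background was 3.00 in SKO, 3.78 in TKO and 5.67 in WT, against 2.33, 3.15 and 3.10 over the whole lists. For this reason differences between lists are read from pileups. The folds printed here describe each list and do not compare the lists.

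The globin genes themselves had no summit. Hba-x (the embryonic zeta globin gene, chr11:32276600-32278116), Hba-a1 (chr11:32283672-32284486) and Hba-a2 (chr11:32296492-32297310), the adult alpha genes, held 0 intervals in each list, and their promoter windows held no summit. From the inner Nprl3 site to the weak site before Hbq1b, TKO had no summit for 47.5 kb and WT for 47.5 kb. That stretch holds most of Nprl3, Hba-x and Hba-a1. In SKO it was broken by the weak interval at the Nprl3 promoter end, into 28.8 kb and 18.6 kb. The nearest summit past Hba-a1 was 1.62 kb away in SKO, 1.63 kb in TKO and 1.66 kb in WT. Past Hba-a2 it was 1.74 kb in SKO and 1.78 kb in TKO, against 2.75 kb in WT, where the weak neighbour of Hbq1a was missing. The promoter windows of Hba-a1 and Hba-a2 were 98.0% identical, so reads there also have more than 1 possible place. RefSeq promoter windows were found for 7 of the 8 named genes (not for Hbb-bh1). None of the 7 held the core motif.

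The intervals with the highest pileups lay downstream. Past Hbq1a, the region at 44.8 kb had the highest pileup of the locus in every list, with 202 in SKO (175 to 232), 234 in TKO (205 to 266) and 234 in WT (205 to 266). Its partner at 48.2 kb had 126 in SKO (105 to 150), 140 in TKO (118 to 165) and 179 in WT (154 to 207). Both lay between genes, the first 20.5 kb from Hbq1a and the second 22.9 kb from Sh3pxd2b, which encodes an adaptor of podosomes. The fold at 44.8 kb was 27.7 in SKO, 29.6 in TKO and 35.9 in WT, at percentile 96.7 of the SKO list, 98.5 of the TKO list and 99.3 of the WT list.

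The outermost regions stepped towards Sh3pxd2b. At 57.7 kb the pileup was 25 in SKO, 39 in TKO and 48 in WT. At 64.7 kb it was 60 in SKO, 74 in TKO and 103 in WT. At 66.4 kb, 4.80 kb from the gene in SKO, it was 145 in SKO (122 to 171), 157 in TKO (133 to 184) and 205 in WT (178 to 235). In all 3 regions the unscaled order was SKO, TKO and WT from low to high. Divided by the lowest background of the list, TKO was lowest in the last 2, with 43.9 in SKO, 40.7 in TKO and 58.7 in WT at 64.7 kb, and 106 in SKO, 86.3 in TKO and 117 in WT at 66.4 kb. As given above, TKO was also lowest over all paired intervals when so scaled, by their median ratios.

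**Figure D3:**
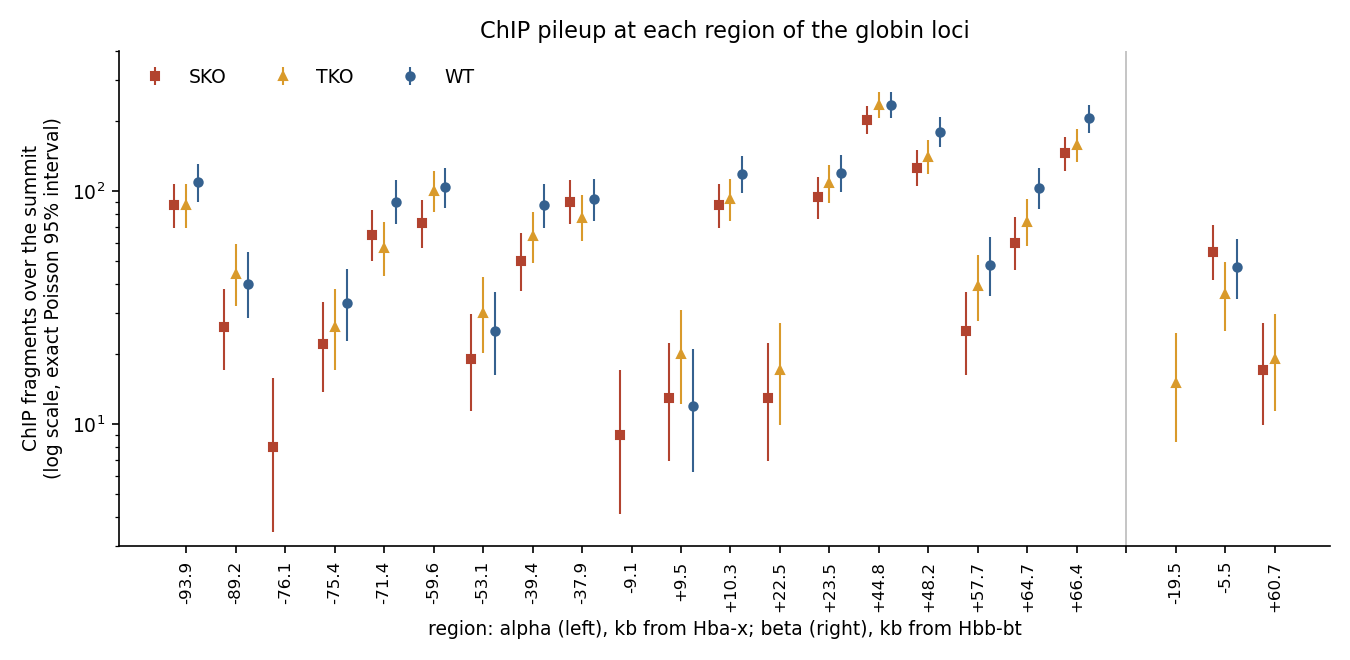
ChIP fragments over the summit (log axis) in SKO, TKO and WT for the 19 alpha regions, by kb from Hba-x, and the 3 beta regions, by kb from Hbb-bt, with exact Poisson 95% intervals as bars. The alpha regions span pileups from 8 to 234, and the regions without a value in some list are among the lowest.

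The pileup ratios of the paired alpha intervals were close to those of the whole lists. Summed over the 16 pairs, the TKO pileup was 1349 against 1599 in WT, a ratio of 0.844 (Clopper-Pearson 95% interval 0.784 to 0.908), where all 57178 pairs of these lists gave 0.917. The SKO pileup was 1184 against 1599 in WT, a ratio of 0.740 (0.686 to 0.799), where 55045 pairs gave 0.752. Over 17 pairs SKO had 1197 against 1366 in TKO, a ratio of 0.876 (0.810 to 0.948), where 52832 pairs gave 0.824. The TKO over WT interval thus lay just below the ratio of the whole lists and the others held it. These intervals compare the pooled libraries and not the genotypes. Of the 16 single ratios of SKO over WT, all had an interval that held the median of all pairs. For TKO over WT 15 of 16 did, with the exception at −71.4 kb, and for SKO over TKO 16 of 17 did, the inner Nprl3 site lying above at 1.17 (0.853 to 1.61).

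The beta locus held few CTCF intervals. Its window (chr7:103762524-103903207, 140.7 kb) held 2 intervals in SKO, 3 in TKO and 1 in WT, or 14.2, 21.3 and 7.11 per Mb. Chromosome 7 had 25.9 per Mb in SKO, 27.4 in TKO and 30.9 in WT. On so few intervals the density depends on the window: within 100 kb of the genes it was 24.9 per Mb in SKO, 20.8 in TKO and 16.6 in WT, which for SKO is close to that of the chromosome. The window of 50 kb holds 10 protein-coding genes, of which 5 are olfactory receptor genes, and no gene body held a summit in any list. Of the 3 regions, 1 was in all lists, 1 in SKO and TKO, and 1 in TKO alone. Over all regions of the series these classes held 66.3%, 1.64% and 4.30%.

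The shared region lay on the side of Hbb-bt, an adult beta globin gene (chr7:103812524-103813923), 5.49 kb from it in SKO, 5.47 kb in TKO and 5.45 kb in WT. The gene is transcribed away from the locus control region, so this is the downstream flank. The intervals were chr7:103806855-103807272 in SKO (fold 16.8), chr7:103806830-103807247 in TKO (10.5) and chr7:103806934-103807229 in WT (9.67). The pileup was 55 in SKO (41.4 to 71.6), 36 in TKO (25.2 to 49.8) and 47 in WT (34.5 to 62.5). SKO was thus the highest of the lists here, although its lowest background was 0.779 times that of WT.

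The SKO over WT pileup ratio of this region was 1.17 (0.778 to 1.77), and its interval lay above the median of all pairs, 0.733. It was at percentile 95.3 of the 55045 pairs. The SKO over TKO ratio was 1.53 (0.986 to 2.39), above the median of 0.821 and at percentile 98.8. The TKO over WT ratio was 0.766 (0.482 to 1.21), which holds the median of 0.894. These 3 ratios share the same lists and are not separate evidence.

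On the side of the locus control region, both knockouts had an interval that WT lacked. It lay at chr7:103873170-103873380 in SKO and chr7:103873123-103873415 in TKO, 20.1 kb and 20.0 kb past Hbb-y, the embryonic epsilon-like gene (chr7:103851754-103853207). Its pileup was 17 in SKO (9.90 to 27.2) and 19 in TKO (11.4 to 29.7), and its fold 7.60 in SKO and 7.10 in TKO. It belonged to the third decile of each list, where 8.12% of SKO and 9.16% of TKO intervals had no WT partner. The nearest protein-coding gene was Olfr66, an olfactory receptor gene, at 8.02 kb in SKO. In WT the nearest summit past Hbb-y was 60.0 kb away.

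The remaining interval was in TKO alone, at chr7:103792901-103793136, 1.18 kb from Olfr67, with a fold of 5.68 and a pileup of 15 (8.40 to 24.7). It was in the second decile of TKO, where 20.6% had no WT partner and 42.9% no SKO partner. Between the flanking regions, at −5.47 kb and 60.7 kb from the first base of Hbb-bt, no list had a summit. This stretch holds Hbb-bt, the other adult gene Hbb-bs (chr7:103826523-103827928), Hbb-bh2, Hbb-bh1 (embryonic, chr7:103841638-103843162) and Hbb-y, and in SKO it measured 66.2 kb. The nearest summits to Hbb-bh1 in SKO were 34.6 kb and 30.1 kb away.

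**Figure D4:**
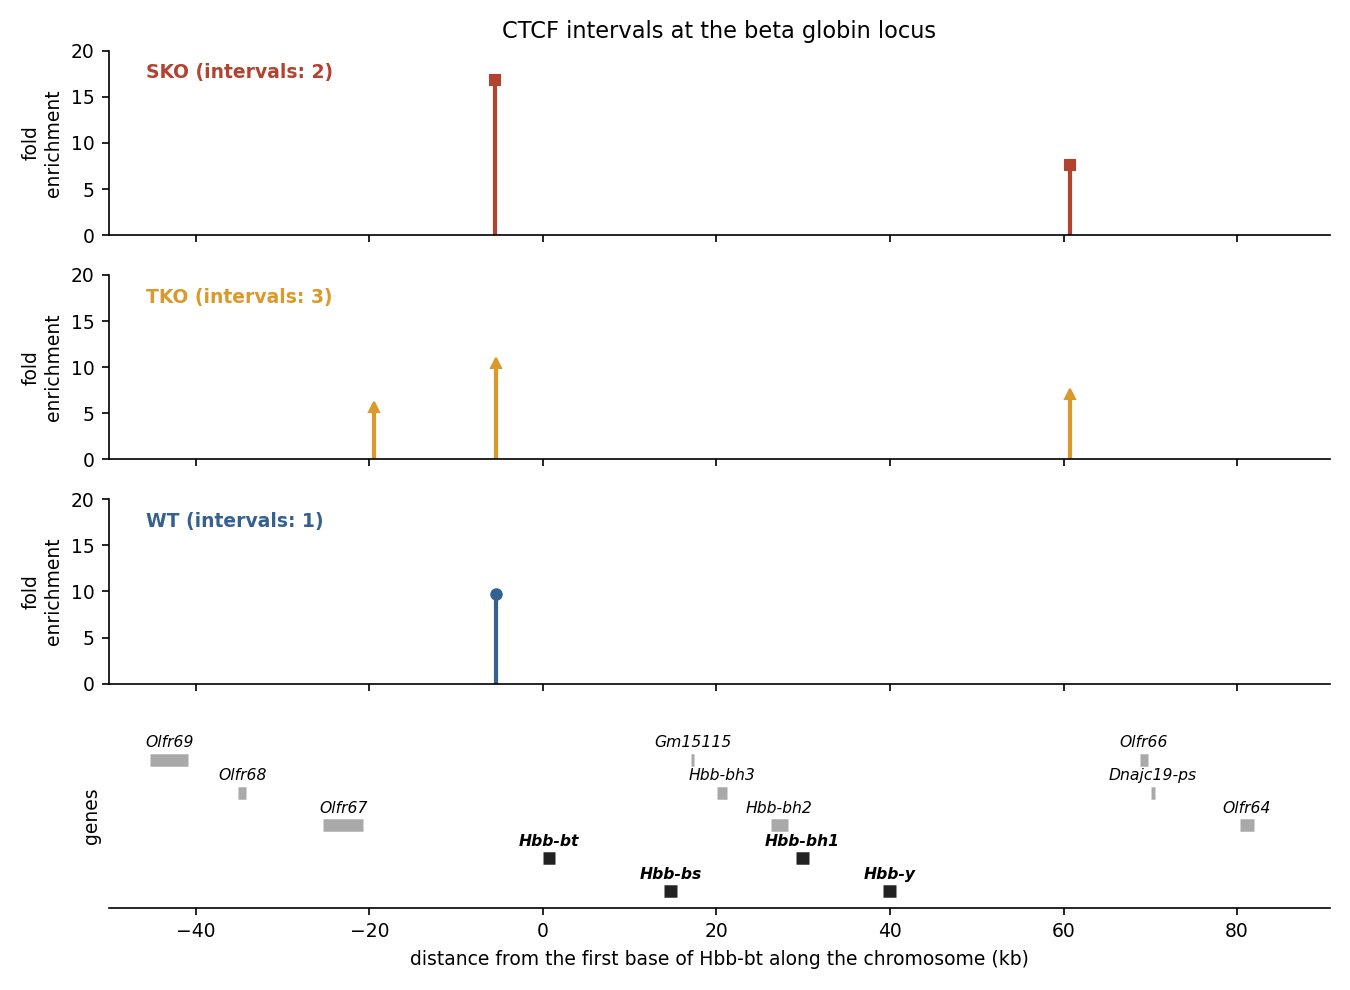
Authors' fold enrichment (stems, linear axis from 0) of each CTCF interval of the beta locus in SKO, TKO and WT, by distance from the first base of Hbb-bt in kb, with the named genes in black and their neighbours in grey. The region beside Hbb-bt is in all lists (fold 16.8, 10.5 and 9.67), that beyond Hbb-y in SKO and TKO, and that near Olfr67 in TKO.

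In counts, 0 of 1 WT interval lacked a TKO or an SKO partner, against 19.0% and 21.9% of the WT list. In the other direction 2 of 3 TKO intervals lacked a WT partner (66.7%, 9.43% to 99.2%, against 7.49% of the TKO list). Of the SKO intervals, 1 of 2 lacked a WT partner (exact interval 1.26% to 98.7%, against 6.59%). Between the knockouts 1 of 3 TKO intervals had no SKO partner (33.3%, 0.840% to 90.6%, against 14.5%) and 0 of 2 SKO intervals had no TKO partner (against 10.4%). The TKO over WT interval leaves out the share of its whole list and the others hold theirs, on 1 to 3 intervals each. Averaged over the 3 TKO members, the share without a WT partner in the member's own decile of −log10 q was 10.1%. The TKO over WT interval holds that share. With a window of 10 kb in place of 50 kb, the region beside Hbb-bt is the 1 interval in each list, and no list then lacks a partner.

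Values at the edge of the rule were as follows. At the low end of the alpha window the region at −93.9 kb was just inside, 49.2 kb from Nprl3. An interval in TKO (fold 13.8) and WT (fold 13.0), with no SKO partner, was just outside at 54.2 kb and 54.1 kb. Its −log10 q was 34.2 in TKO and 31.4 in WT, in the sixth decile of each list. In that decile 0.627% of TKO and 2.11% of WT intervals had no SKO partner. This interval was thus not weak, unlike those that differed inside the alpha window. Beyond Hbb-y an interval present in all lists was just outside at 60.0 kb, with a fold of 12.9 in SKO, 11.3 in TKO and 16.5 in WT. Within 100 kb the beta locus held 6 intervals in SKO, 5 in TKO and 4 in WT.

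**Figure D5:**
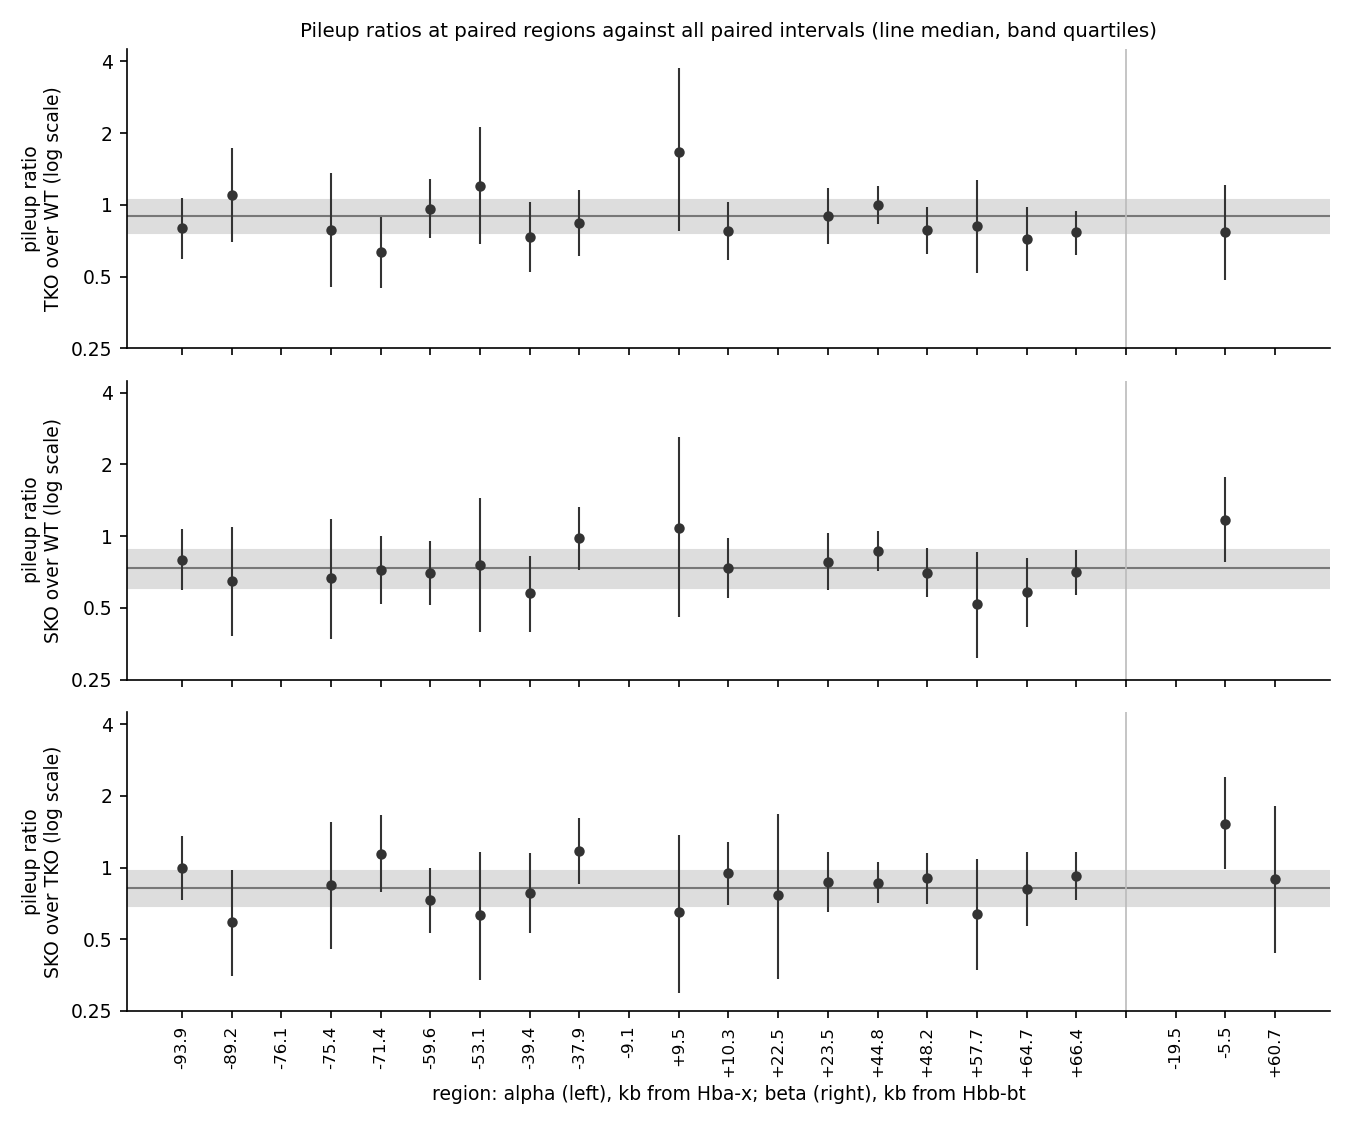
Pileup ratios (log axis) of TKO over WT, SKO over WT and SKO over TKO at each paired region of the alpha and beta loci, with exact 95% counting intervals; the line and band are the median and quartiles over all paired intervals of the lists. Most alpha ratios scatter around the line, and the beta region beside Hbb-bt lies above it for SKO over WT (1.17) and SKO over TKO (1.53).

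Other genes of the red cell pathway were taken as a list of 27, of which 25 were placed on the chromosomes. Of these, 4 are globin genes of the loci above, with Hbq1a and Hbq1b among them, and are left out of the totals here. Within 10 kb of the other 21 genes lay 62 SKO, 64 TKO and 70 WT intervals, and 19 of the 21 had an interval in every list. Of the WT intervals 13 (18.6%) had no TKO partner and 15 (21.4%) no SKO partner, against 19.0% and 21.9% over the whole list. In the other direction 7 TKO intervals (10.9%) and 7 SKO intervals (11.3%) had no WT partner, against 7.49% of the TKO list and 6.59% of the SKO list. All 7 of these SKO intervals were among the 37 near regulators (18.9%). For TKO the counts were 4 of 37 near regulators (10.8%) and 3 of 27 near genes of red cell products (11.1%). The difference between these groups of genes was not tested. Between the knockouts 11 TKO intervals (17.2%) had no SKO partner, against 14.5% of the TKO list, and 9 SKO intervals (14.5%) had no TKO partner, against 10.4% of the SKO list. Ank1, the ankyrin of the red cell membrane, had most, with 7 in SKO, 8 in TKO and 9 in WT. Zfpm1, a cofactor of GATA1, had 5 in SKO, 5 in TKO and 7 in WT. Of these, 3 WT intervals had no SKO partner and 3 no TKO partner, and 1 SKO and 1 TKO interval had no WT partner. Counts per gene were not scaled for gene length or for the size of the lists. Tfrc, the transferrin receptor, had 5 in SKO, 7 in TKO and 5 in WT.

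Gfi1b, a repressor of red cell and platelet precursors, had 4 in SKO, 6 in TKO and 6 in WT. Sox6, which helps silence embryonic globin genes, had 6 in SKO, 5 in TKO and 5 in WT. Ldb1, a cofactor that joins enhancers to promoters, had 5 in SKO, 4 in TKO and 5 in WT. No interval lay near Gata1, Alas2, Hbb-bh2 or Hbb-bh3 in any list. These 4 genes are named after their values were seen.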

How the data were processed

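CTCF ChIP-seq of mouse embryonic stem cells was available as 3 deposited peak lists, 1 per genotype. The authors pooled 3 ChIP replicates before calling peaks against input, per the labels. The submitters' processing notes name Bowtie2 2.3.4, SAMtools 1.9, MACS2 2.1.2, bedtools 2.25.0 and mm10; how reads were filtered is unknown here. The deposited values are, per peak, the authors' fold enrichment (a ratio), −log10 p, −log10 q (lowest 1.31 in SKO, 1.30 in TKO and WT) and a score that restates −log10 q. Read totals were not used here. Depth was gauged from the peaks themselves: solving fold and −log10 p together returned a whole pileup (relative tolerance 1e-04) for 100% of rows, and the lowest background was 1.37 fragments in SKO, 1.82 in TKO and 1.76 in WT.

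Rows with equal intervals were joined, keeping the strongest summit. Partners overlapped by at least 1 bp, and the counts without a partner matched those of bedtools 2.31.1. Genes and promoter windows came from RefSeq tables of GRCm38.p6, the assembly behind mm10, without exons. Analyses used Python 3.11.15 with numpy 2.4.6, scipy 1.17.1, pandas 2.3.3 and Biopython 1.88; the pileup solver was tested on simulated data. All intervals of both loci are reported, with neighbouring genes and the 6 red cell genes with most intervals. Of the 27 red cell genes Ahsp and Hbb-bh0 were not placed. The members and lists were chosen with earlier results of these data known.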

Additional observations from a re-analysis of the deposited data

How the results depend on the processing

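Of 138 recomputed values, 113 kept within 1.5 times the count or within the counting interval of the ratio, and 25 moved. With a window of 10 kb the alpha locus held 8 intervals in SKO, 7 in TKO and 6 in WT, with 1 SKO interval without a TKO partner. The beta locus then held 1 in SKO and 1 in TKO, and 0 TKO intervals without a WT partner, 0 SKO without WT and 0 TKO without SKO. With a window of 100 kb the alpha locus had 2 TKO intervals without WT, 1 WT without SKO and 2 TKO without SKO. The beta locus then had 6 intervals in SKO, 5 in TKO and 4 in WT, with 1 WT without TKO, 1 WT without SKO, 3 SKO without WT and 2 SKO without TKO. Without Nprl3 the alpha locus held 12 in SKO, 11 in TKO and 10 in WT, with 1 SKO without TKO. These moves follow from the width of the window or, without Nprl3, from the genes taken. At a −log10 q of at least 5, 2 alpha TKO intervals had no WT partner, since the weak WT interval by Hbq1b drops out, and 0 SKO intervals had no TKO partner. Pairing by summits within 100 bp and asking for an overlap of 50% of the shorter interval moved none. Counting every summit row could move none, since no interval of either locus had several summits. Its 9 values for each locus are among the 113. Replicates could not be left out. Effects of depth on weak intervals were not tested. No paired analysis was possible because the replicates were pooled before peak calling.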
